A study of Homo sapiens with 29 samples.

Results

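Zinc transporters and metallothioneins were followed in EndoC-βH1, an insulin-secreting line of human β cells. The set held 4 zinc exporters of the SLC30 (ZnT) family, 2 zinc importers of the SLC39 (ZIP) family and 4 metallothioneins. They were taken by Ensembl identifier from the deposited table and are 10 of its 66025 entries: SLC30A8, SLC30A1, SLC30A5, SLC30A9, SLC39A14, SLC39A10, MT1X, MT2A, MT1E and MT1F. The cells had spent 10 days in daily renewed medium conditioned by a stable HEK293 line (human embryonic kidney). In 9 libraries that line carried only the empty vector (EV), in 10 it overexpressed the wild-type form of CEL (WT), and in 10 the mutant form (MUT). Carboxyl ester lipase, the product of CEL, digests fats and is made by acinar cells of the pancreas. Which mutation was used is not given here, and every EndoC-βH1 culture, controls included, received HEK293-conditioned medium. The labels assign the 29 libraries to 3 batches, with 3 EV, 4 WT and 4 MUT libraries in batch 1 and 3 of each in batches 2 and 3, and do not say what a batch stands for. Library totals ran from 26.2 to 40.25 M estimated counts (M, 1e6). Whether replicate libraries stem from different cultures is not stated either, so p-values reflect only how these libraries scatter, which may be technical.

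β cells are among the most zinc-rich cells of the body because insulin is stored as zinc-containing crystals in secretory granules. SLC30 proteins move zinc out of the cytosol, either across the plasma membrane or into organelles and granules, and SLC39 proteins move it into the cytosol. Metallothioneins are small cysteine-rich proteins that bind zinc and copper. When zinc rises, the transcription factor MTF1 binds metal response elements and induces metallothionein genes and SLC30A1, so these transcripts are commonly read as a sensor of cellular zinc.

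The transcripts differed widely in level. To compare genes, counts per 1e6 (CPM), scaled by edgeR's trimmed mean of M values (TMM), were averaged over the 29 libraries and divided by the length of each gene's longest annotated transcript. On this scale SLC30A8 was highest at 97.8 CPM per kb. It was followed by SLC39A14 at 50.2, SLC30A9 at 32.1, SLC30A5 at 16.7, SLC39A10 at 8.62 and SLC30A1 at 1.26 CPM per kb. The metallothioneins came last, MT1X at 0.473, MT1F at 0.471, MT2A at 0.162 and MT1E at 0.0235 CPM per kb. SLC30A8 was first, and MT2A and MT1E were last, under the union of exons and the principal transcript as well. MT1X and SLC30A1 exchanged places 6 and 7 with the principal transcript, so these neighbours cannot be ordered.

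**Figure D1:**
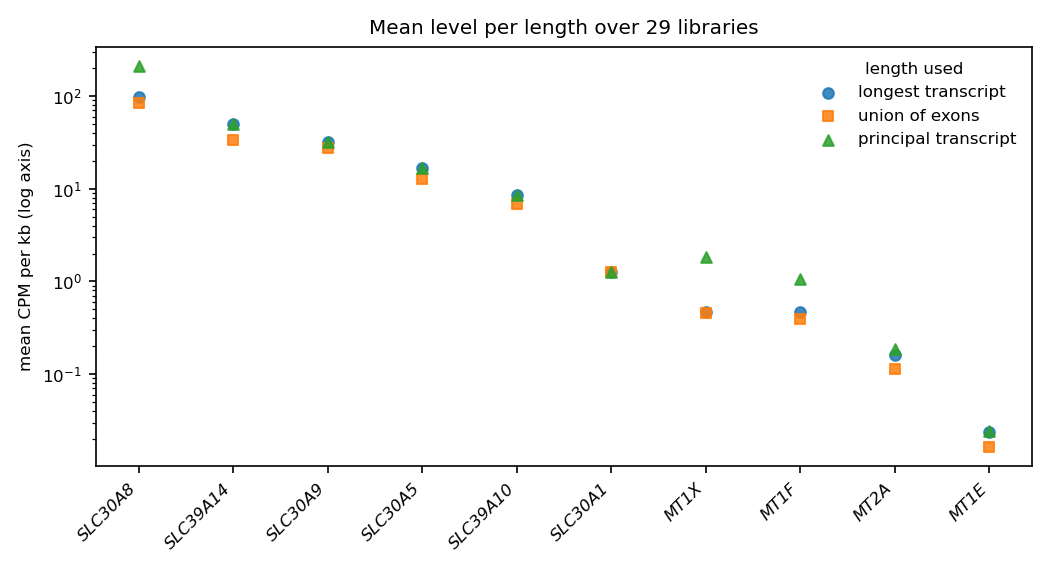
Mean level of the 10 genes over 29 libraries, in CPM per kb on a log axis, with each of 3 lengths as a separate symbol. SLC30A8 stands highest under each length, and MT1E lowest.

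Metallothionein RNA was scarce in these β cells. The table held 21 metallothionein genes and pseudogenes, of which 13 had a count in some library and 8 were at 0 in every library. Over all libraries MT1X held 40.5% of metallothionein counts, MT1F 36.5%, MT3, a form best known from brain, 12.7%, and MT2A 7.31%. That order rests on batch 2. In batch 1 the mean level of MT3 was 0.275 CPM with EV medium, 0.412 with WT and 0.338 with MUT, above MT1F at 0.214 and MT1X at 0.117 CPM over the batch. In batch 3 MT1F, at 0.365 CPM, was above MT1X, at 0.283 CPM. MT1E had 17 estimated counts over the 29 libraries and never more than 2 in one. Its 16 libraries at 0 allow up to 3 counts each, which is 0.0782 to 0.114 CPM depending on the library (counting error only). Metallothionein genes resemble one another, and kallisto shares ambiguous reads by estimation, so the split between members may be less certain than their sum. Counts of MT1F, MT2A and MT1E were whole numbers in every library, and MT1X had a fractional count, 126.99, in MUT library 2 of batch 2. Whole numbers cannot show that no reads were ambiguous, because the estimation may give all such reads to a single gene.

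Of the 10 genes, 8 passed the low-count filter and were tested with edgeR over all 29 libraries, with medium and batch in the model and p-values adjusted over the 21259 genes tested. MT2A and MT1E did not pass. The filter asked for about 0.294 CPM in at least 6 libraries, which MT1X met in 0 libraries of batch 1, 9 of batch 2 and 5 of batch 3, and MT1F in 1, 9 and 7. MT1X therefore entered the test only through batch 2, where it is high, and its differences between batches are given as a description. MT1F met the filter in enough libraries without batch 2.

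Levels differed between batches. MT1X is left out of these counts because of how it passed the filter. Of the 7 other tested members, 7 were called higher in batch 2 than in batch 1 (66.7% of all genes were called in either direction), 6 were called higher in batch 3 than in batch 1 (56.6% of all genes) and 4 were called between batches 3 and 2, 1 higher and 3 lower (44.5% of all genes). A large share of all genes was thus called between any pair of batches. Batch held 83.2% of the variance of log2 CPM of SLC30A1, 85% of SLC39A10, 78.8% of MT1X, 80.4% of MT1F, 75.6% of SLC30A9 and 67.6% of SLC30A8. The median over all genes tested was 46.5%. For SLC30A5 batch held 40.4%, medium 9.28% and the difference of medium effects between batches 35.3%. For SLC39A14 batch held 31.6%, medium 26.3% and the difference between batches 35.8%, so that batch was not the largest share there. The share of counts from mitochondrial genes also moved with batch, at 6.98% in batch 1, 4.70% in batch 2 and 4.46% in batch 3, and its part in these differences was not tested.

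Between media few members passed when the batches were pooled. MUT vs EV called 1 of the 8 tested members (SLC39A14, higher), where 5.2% of all genes were called. MUT vs WT called 0 of 8 (0.884% of all genes), and DESeq2 and limma voom also called 0. By edgeR 3 of the 8 had an unadjusted p under 0.05, as did 3145 of all 21259 genes. WT vs EV called 1 of 8 (SLC30A8, higher), where 0.315% of all genes were called. MUT vs EV and WT vs EV share their EV libraries, so their values are set side by side and are not independent. The medium effect differed between batches for 6 of the 8 members, where 49.2% of all genes did, so each batch is given on its own below. MT1X, among these 6, entered that test only through batch 2.

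Within batches the calls came mostly from batch 2. In batch 2 alone, with 9 members tested because MT2A passed that filter, MUT vs EV called 6 (all higher, 47.8% of all genes), MUT vs WT 4 (3 higher and 1 lower, 33.1%) and WT vs EV 7 (6 higher and 1 lower, 38.9%). In batch 1 alone, where 6 members passed the filter and no metallothionein did, MUT vs EV called 0 (1.4% of all genes), MUT vs WT 1 (0.277%) and WT vs EV 0 (0.0143%). Before adjustment, edgeR gave p under 0.05 to 5 of these 6 for MUT vs EV (4698 of all 20942 genes tested). For WT vs EV it did so for 3 (2042 of 20942). In batch 3 alone, with 8 tested, MUT vs EV called 0 (0.049%), MUT vs WT 1 (1.22%) and WT vs EV 0 (0.00981%). Before adjustment, 2 members had p under 0.05 in batch 3 for MUT vs EV by edgeR (3055 of all 20390 genes tested). For WT vs EV 1 did (1091 of 20390).

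**Figure D2:**
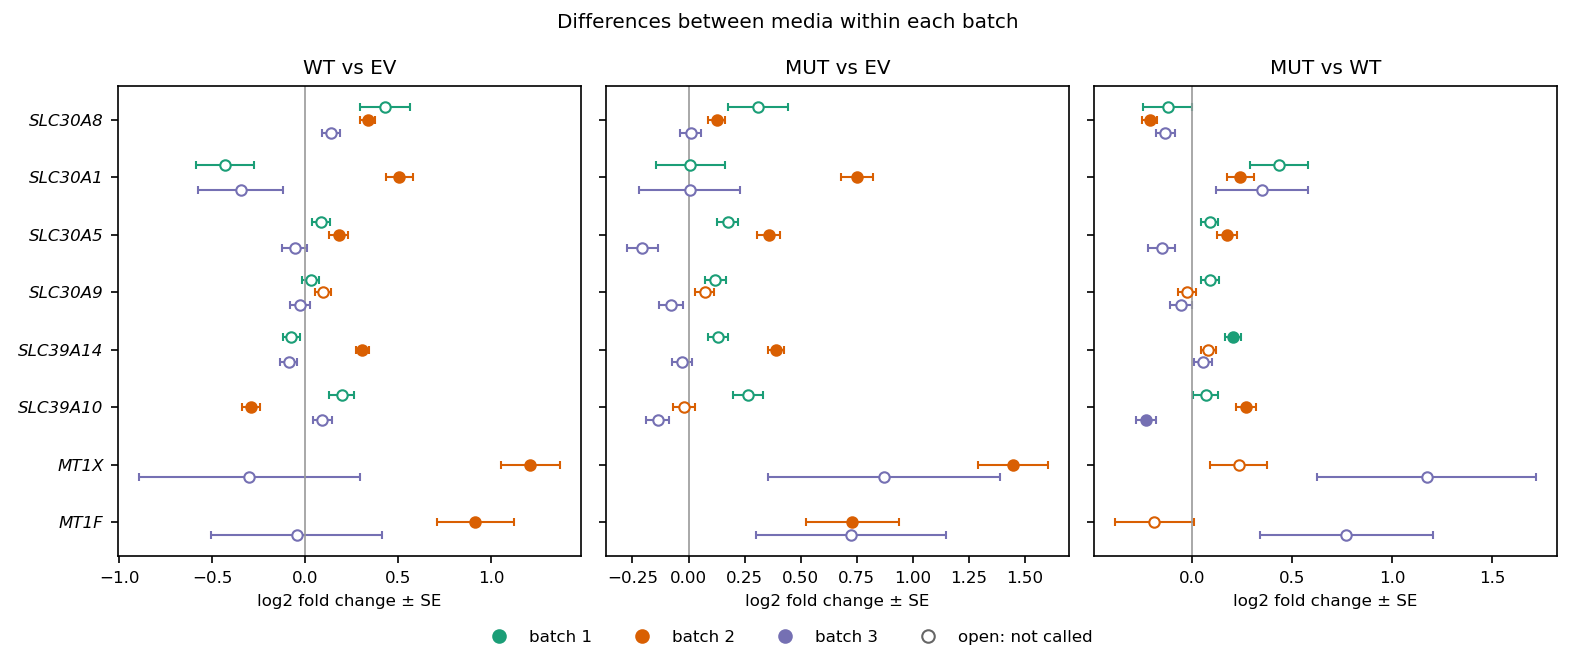
log2 fold change with its standard error for the 8 genes tested in all libraries, by comparison (panels) and by batch fitted alone (colours, filled where called). Filled points belong to batch 2 except SLC39A14 in batch 1 and SLC39A10 in batch 3, both MUT vs WT, and MT1X and MT1F did not pass the filter of batch 1.

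MT1X, a metallothionein of the human MT1 cluster (chromosome 16, 56682424 to 56684196, plus strand), was at trace level in batches 1 and 3 and above 1 CPM in every library of batch 2. The start regions of MT1X and SLC30A1 are shown because these genes moved together across batches and both are known targets of MTF1. Sequences are RefSeq promoters of GRCh38.p14, read 5′ to 3′ on the gene's strand and ending before the start in RefSeq and in GENCODE. Capitals mark the core of the metal response element, searched as TGCACNC and TGCGCNC on both strands.
MT1X, chr16:56682220-56682423, plus strand: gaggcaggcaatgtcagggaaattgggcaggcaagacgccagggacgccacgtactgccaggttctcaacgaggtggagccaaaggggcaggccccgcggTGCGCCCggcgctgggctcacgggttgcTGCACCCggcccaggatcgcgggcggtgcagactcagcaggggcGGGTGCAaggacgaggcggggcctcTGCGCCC
SLC30A1, chr1:211579162-211579411, minus strand: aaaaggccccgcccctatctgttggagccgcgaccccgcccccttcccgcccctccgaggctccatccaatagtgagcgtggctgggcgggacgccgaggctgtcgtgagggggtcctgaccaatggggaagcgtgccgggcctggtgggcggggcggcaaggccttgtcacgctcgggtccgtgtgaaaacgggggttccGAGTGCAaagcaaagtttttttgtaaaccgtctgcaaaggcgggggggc
The MT1X stretch holds 4 matches, 3 on the plus and 1 on the minus strand. The SLC30A1 stretch holds 1, on the opposite strand. MT2A has 7 matches in its 250-base RefSeq window (chromosome 16, 56608334 to 56608583), which GENCODE places inside the first exon. The windows of SLC30A5, SLC30A9 and SLC39A10 hold 0 matches. No window was used for the other 4 members, SLC30A8, SLC39A14, MT1E and MT1F, so their matches are not known here. Matches were also found on genes with hardly any RNA. The windows of MT1H, MT4 and MT1B hold 8, 3 and 3 matches, and these genes had 1, 2 and 1 estimated counts over the 29 libraries. These genes were chosen after their values were seen, and whether the number of matches goes with the level of a gene was not tested. Of 35116 promoter windows of 250 bases, 24.8% hold at least 1 match, 1.05% at least 3 and 0.208% at least 4. A match is a description of letters and not a measured binding site.

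Values of MT1X in batch 2 separated EV from both CEL media. The EV libraries were at 1.07, 1.04 and 1.17 CPM, the WT libraries at 2.50, 2.67 and 2.46, and the MUT libraries at 2.42, 3.37 and 3.13. EV did not overlap WT or MUT, while WT and MUT overlapped. In batch 2 alone MT1X rose by 1.45 ± 0.16 (log2, SE) in MUT vs EV (adjusted p = 7.7e-07) and by 1.21 ± 0.16 in WT vs EV (adjusted p = 1.1e-05), and MUT vs WT was 0.23 ± 0.14 (adjusted p = 0.23). These values rest on 36 to 127 estimated counts per library.

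The other batches did not repeat that order. In batch 1 the EV libraries of MT1X were at 0.260, 0.162 and 0.190 CPM, the WT libraries at 0.0770, 0.135, 0.0264 and 0.0941, and the MUT libraries at 0.119, 0.140, 0.0884 and 0. EV was thus above every WT and MUT library, but on 7 counts or fewer per library and with no test. In batch 3 EV was at 0.126, 0.316 and 0.243 CPM, WT at 0.414, 0.118 and 0.0607, and MUT at 0.358, 0.541 and 0.371. There MUT lay above EV, at 0.87 ± 0.52 (log2, SE, adjusted p = 0.45), and WT overlapped EV. The medium effect on MT1X differed between batches (interaction test, adjusted p = 0.0020), a test it entered only through batch 2. With the batches pooled, MUT vs EV was 0.85 ± 0.32 (adjusted p = 0.098) and WT vs EV 0.45 ± 0.32 (adjusted p = 0.59), and without batch 2 the WT vs EV value was -0.73. Between batches MT1X was 4.20 ± 0.30 higher on the log2 scale in batch 2 than in batch 1, and -2.92 ± 0.29 in batch 3 vs batch 2. These 2 values are a description, because MT1X entered the test only through batch 2.

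MT1F, another MT1 gene (chromosome 16, 56657694 to 56660698, plus strand), followed a like course. In batch 1 its level ran from 0.0336 to 0.297 CPM, in batch 2 from 0.949 to 2.46 and in batch 3 from 0.148 to 0.669. Every batch 2 library thus lay above every library of the other batches. Within batch 2, EV was at 0.949, 1.48 and 1.06 CPM, WT at 1.85, 2.28 and 2.46, and MUT at 1.43, 2.31 and 2.02. WT lay above EV without overlap, and MUT overlapped EV in 1 library. In that batch MT1F rose by 0.91 ± 0.21 in WT vs EV (adjusted p = 0.0019) and by 0.73 ± 0.21 in MUT vs EV (adjusted p = 0.0076), and MUT vs WT was -0.19 ± 0.20 (adjusted p = 0.51). The interaction of medium and batch had an adjusted p of 0.098, and with the batches pooled MUT vs EV was 0.61 ± 0.23 (adjusted p = 0.0975). Batch 2 exceeded batch 1 by 3.02 ± 0.21 (log2, adjusted p = 1.5e-13), and batch 3 vs batch 2 was -2.26 ± 0.21 (adjusted p = 1e-09).

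MT2A, in many tissues the main metallothionein (chromosome 16, 56608199 to 56609497, plus strand), was also highest in batch 2. Its level there ran from 0.101 to 0.615 CPM with a median of 0.297, against 0 to 0.190 CPM in batch 1 and 0 to 0.0637 in batch 3. The 3 media overlapped in batch 2, at 0.415, 0.174 and 0.101 CPM in EV, 0.235, 0.615 and 0.297 in WT and 0.233, 0.398 and 0.607 in MUT. In batch 2 alone MUT vs EV was 0.89 ± 0.52 (adjusted p = 0.17) and WT vs EV 0.76 ± 0.53 (adjusted p = 0.29). With no filter, MT2A was 1.93 ± 0.36 higher in batch 2 than in batch 1 (adjusted p = 1.7e-05). MT1E (chromosome 16, 56625475 to 56627112, plus strand) had at most 2 counts per library in each batch, and no difference was detectable at this depth.

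Summed over all 21 metallothionein entries, the level was 0.648 to 1.002 CPM in batch 1, 2.73 to 6.60 in batch 2 and 0.414 to 1.47 in batch 3. Within batch 2 it was 2.73 to 3.22 CPM in EV, 4.89 to 5.95 in WT and 4.34 to 6.60 in MUT, so that EV stood below both CEL media. This sum does not depend on how reads were shared between the copies. Of a list of 13 other metallothionein genes, which leaves out the pseudogenes MT1XP1, MT1P1, MT2P1 and MT1P3, only MT3 passed the filter. MT3 was at -0.18 ± 0.25 in batch 2 vs batch 1 (adjusted p = 0.53), where the MT1 genes were higher. MT3 was lower in batch 3 than in batch 2, as they were (-1.41 ± 0.31). It was also lower in batch 3 than in batch 1 (-1.59 ± 0.30), where they were higher. Both values are a description, because MT3 entered the test only through batches 1 and 2. In batch 3 the 13 genes together stayed at or below 0.264 CPM in every library, under the filter's 0.294 CPM.

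**Figure D3:**
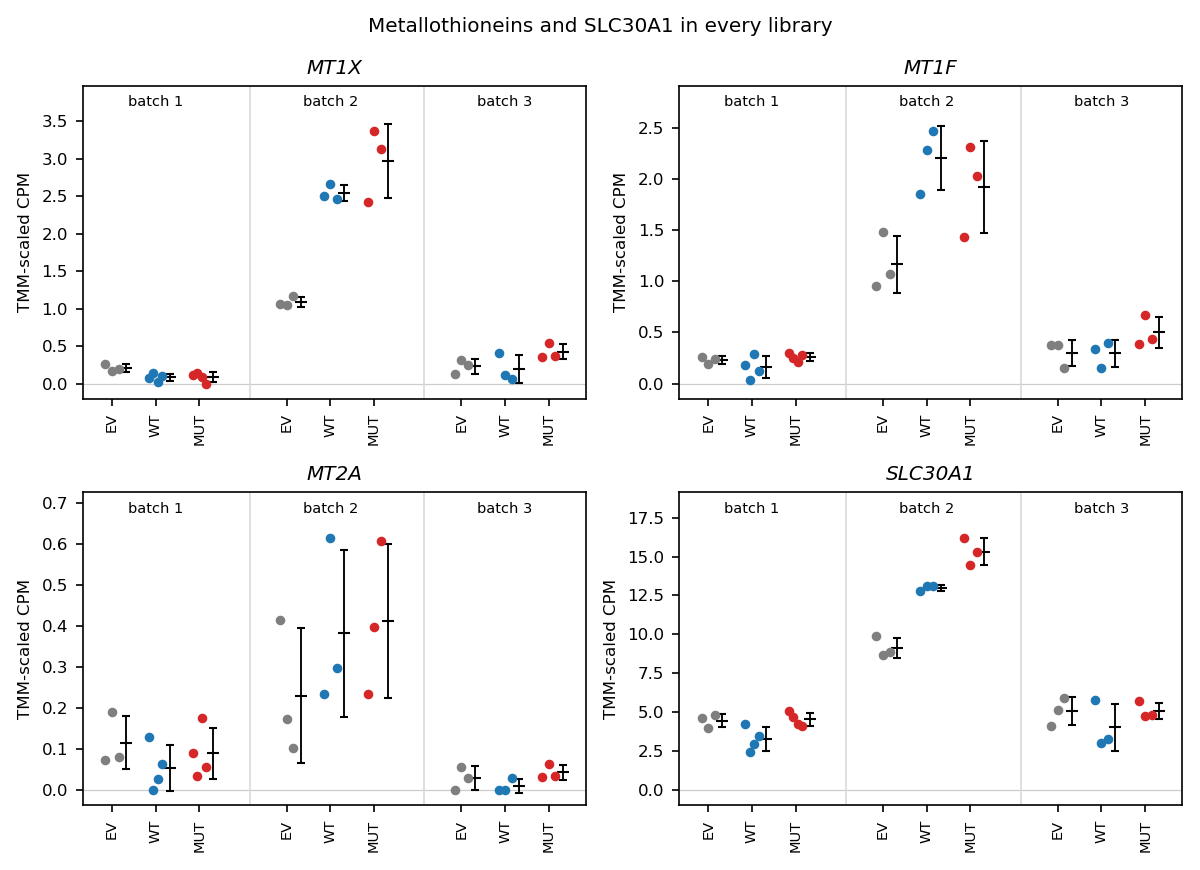
TMM-scaled CPM of MT1X, MT1F, MT2A and SLC30A1 in each of the 29 libraries by batch and medium (grey EV, blue WT, red MUT), with the mean ± SD of each group in black. For MT1X, MT1F and SLC30A1 each of the 9 batch 2 libraries lies above every library of the other batches.

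SLC30A1 encodes ZnT1, the plasma membrane exporter that removes zinc from the cell (chromosome 1, 211571568 to 211578742, minus strand). Its level rose in batch 2 with that of MT1X and MT1F. It ran from 2.42 to 5.09 CPM in batch 1, from 8.67 to 16.2 in batch 2 and from 3.04 to 5.93 in batch 3. Batch 2 exceeded batch 1 by 1.62 ± 0.12 (log2, adjusted p = 1.1e-12), batch 3 vs batch 2 was -1.40 ± 0.13 (adjusted p = 8.9e-10), and batch 3 vs batch 1 was 0.22 ± 0.13 (adjusted p = 0.14).

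The 3 media were fully separated for SLC30A1 in batch 2. EV libraries were at 9.88, 8.67 and 8.87 CPM, WT at 12.8, 13.1 and 13.1, and MUT at 16.2, 14.4 and 15.3. The order was EV, then WT, then MUT, with no overlap between neighbours. SLC30A1 rose in batch 2 by 0.75 ± 0.07 in MUT vs EV (adjusted p = 1.7e-07), by 0.51 ± 0.07 in WT vs EV (adjusted p = 2.7e-05) and by 0.24 ± 0.07 in MUT vs WT (adjusted p = 0.012). The last of these calls is lost without MUT library 1 of batch 2 (0.20, adjusted p = 0.059).

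Elsewhere the media overlapped and WT had the lowest mean. In batch 1 SLC30A1 was at 4.61, 3.98 and 4.80 CPM in EV, 4.26, 2.42, 2.98 and 3.48 in WT and 5.09, 4.69, 4.27 and 4.11 in MUT. In batch 3 it was at 4.12, 5.17 and 5.93 CPM in EV, 5.76, 3.04 and 3.25 in WT and 5.70, 4.78 and 4.79 in MUT. WT vs EV was -0.43 ± 0.16 in batch 1 (adjusted p = 0.38) and -0.35 ± 0.23 in batch 3 (adjusted p = 0.999), against the rise in batch 2, and the medium effect differed between batches (adjusted p = 0.0070). MUT vs WT was above 0 in each batch, at 0.44 ± 0.14, 0.24 ± 0.07 and 0.35 ± 0.23, and pooled at 0.35 ± 0.12 (adjusted p = 0.17), which did not pass.

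SLC30A8 encodes ZnT8, the exporter that loads zinc into insulin granules and a defining gene of β cells (chromosome 8, 116950273 to 117176714, plus strand). It was the member whose WT medium level exceeded the EV level in every batch. In batch 1 the EV libraries were at 340, 387 and 316 CPM and the WT libraries at 428, 500, 513 and 429. In batch 2 EV was at 528, 495 and 525 CPM and WT at 653, 655 and 648. In batch 3 EV was at 579, 582 and 627 CPM and WT at 630, 652 and 684. In each batch the lowest WT library lay above the highest EV library, in batch 3 by little.

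With the batches pooled SLC30A8 rose by 0.30 ± 0.06 in WT vs EV (log2, edgeR adjusted p = 0.016), a 1.23-fold difference. Within batches it was 0.43 ± 0.14 (adjusted p = 0.37), 0.34 ± 0.04 (adjusted p = 2.5e-06) and 0.14 ± 0.05 (adjusted p = 0.72) in batches 1, 2 and 3. The pooled call is lost without EV library 2 of batch 2 (0.29, adjusted p = 0.053), without batch 2 (0.28, adjusted p = 0.20), and when the libraries of a batch and medium are treated as correlated (0.30, adjusted p = 0.76) or summed to 1 profile (0.30, adjusted p = 1).

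MUT medium gave SLC30A8 levels between those of EV and WT in mean. The MUT libraries were at 379, 503, 503 and 362 CPM in batch 1, at 582, 538 and 564 in batch 2 and at 601, 606 and 593 in batch 3. They overlapped both other media in batch 1, lay between them without overlap in batch 2, and lay below WT and within the EV range in batch 3. In batch 2 alone SLC30A8 rose by 0.13 ± 0.04 in MUT vs EV (adjusted p = 0.012) and fell by 0.21 on the log2 scale in MUT vs WT (SE 0.04, adjusted p = 0.00044). The first of these calls is lost without MUT library 1 of batch 2 (0.10, adjusted p = 0.059). Pooled, MUT vs EV was 0.16 ± 0.06 (adjusted p = 0.097) and MUT vs WT -0.14 ± 0.06 (adjusted p = 0.22). The medium effect was not called different between batches (adjusted p = 0.23). SLC30A8 was lowest in batch 1: batch 2 exceeded it by 0.46 ± 0.06 (adjusted p = 2.6e-08) and batch 3 by 0.56 ± 0.06 (adjusted p = 7.1e-10).

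Other insulin granule genes were read beside SLC30A8. Of 12 tested, 2 rose in pooled MUT vs EV (5.2% of all genes were called), the prohormone convertase PCSK2 by 0.15 ± 0.04 (adjusted p = 0.035) and the granin SCG2 by 0.36 ± 0.11 (adjusted p = 0.047). In batch 2, WT vs EV called 9 of the 12 higher and 2, INS and CHGB, lower (38.9% of all genes), MUT vs EV 4 higher and 4 lower (47.8%), and MUT vs WT 5 lower (33.1%). Of the 10 β-cell markers, MUT vs EV in batch 2 called 3 higher and 5 lower, and MUT vs WT 2 higher and 6 lower. With the batches pooled, ISL1 rose by 0.23 ± 0.07 (adjusted p = 0.041) and NEUROD1 by 0.22 ± 0.05 (adjusted p = 0.027) in MUT vs EV, and ABCC8 fell by 0.25 in MUT vs WT (SE 0.05, adjusted p = 0.0091), where 0.884% of all genes were called. With correlated libraries limma voom called no gene of the whole table in pooled MUT vs EV (2128 at an unadjusted p under 0.05). The pooled calls in MUT vs EV named here and below are thus lost there. In pooled MUT vs WT edgeR called no gene with 1 summed profile per batch and medium (525 at an unadjusted p under 0.05) or with no batch term (914). The ABCC8 call is thus lost in both. SLC30A8 differed from INS in direction in batch 2 in WT vs EV, where INS was at 12380 ± 894 CPM (SD, n = 3) in EV and 8841 ± 313 in WT.

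**Figure D4:**
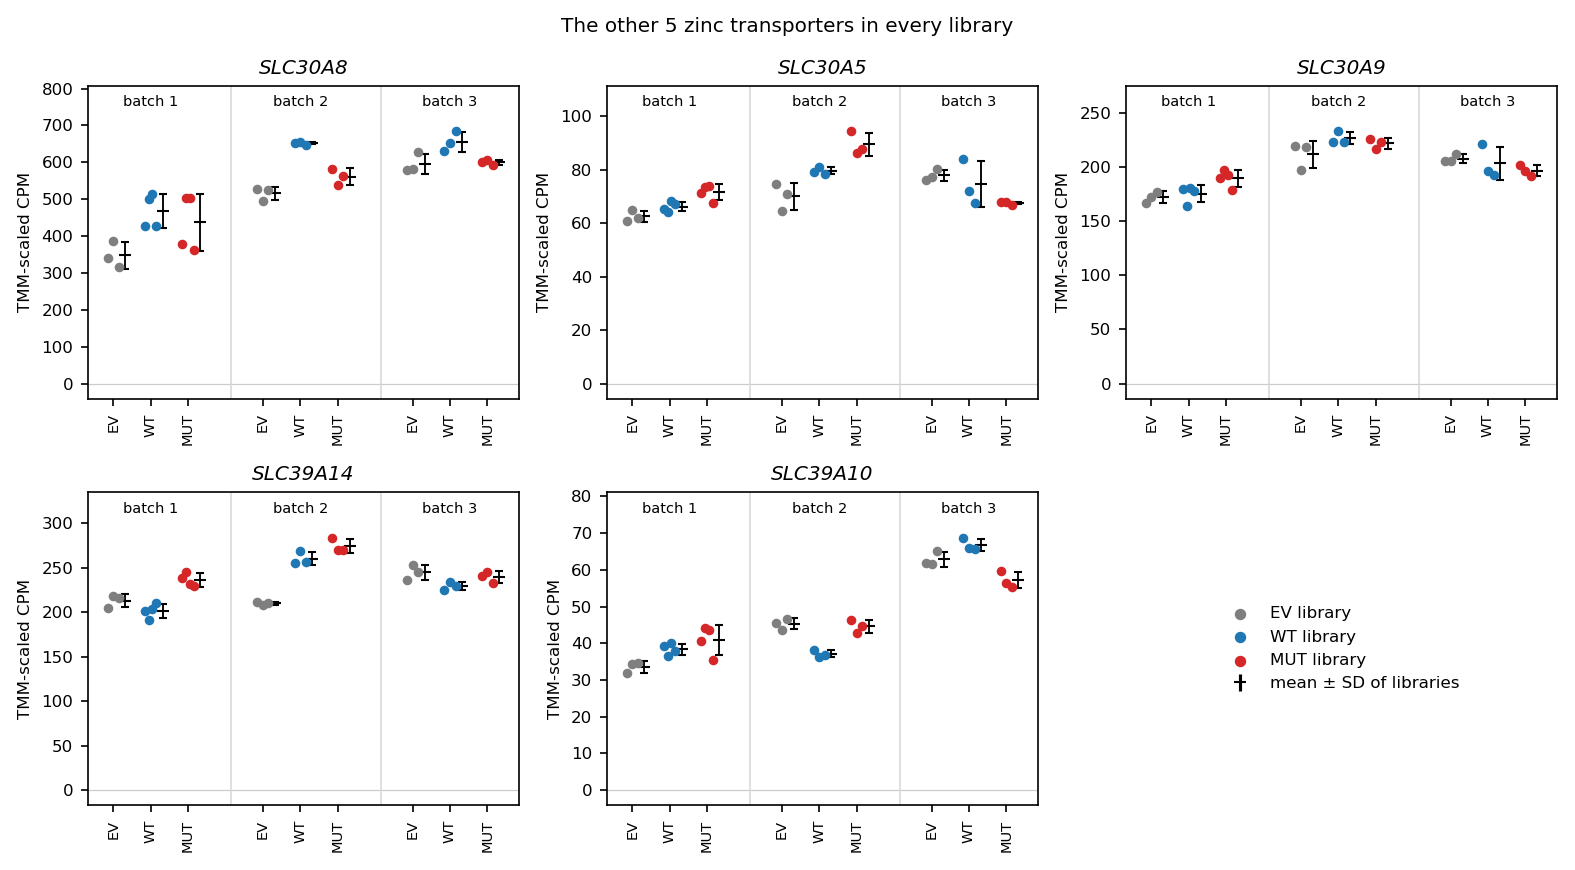
TMM-scaled CPM of the other 5 zinc transporters in each of the 29 libraries by batch and medium, with the mean ± SD of each group in black. SLC30A8 is higher in WT than in EV libraries in each batch, SLC39A10 is highest in batch 3, and SLC39A14 separates EV from WT and MUT in batch 2.

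SLC30A5 encodes ZnT5, which works in the early secretory pathway in a complex with SLC30A6 (chromosome 5, 69093646 to 69131069, plus strand). Its response to MUT medium differed in direction between batches. In batch 1 it was at 60.9, 64.8 and 61.8 CPM in EV and 71.2, 73.5, 73.9 and 67.4 in MUT. In batch 2 it was at 74.6, 64.6 and 71.0 CPM in EV, 79.2, 81.1 and 78.4 in WT and 94.3, 86.3 and 87.9 in MUT. In batch 3 it was at 76.1, 77.2 and 80.3 CPM in EV and 67.8, 67.8 and 67.0 in MUT. MUT lay above EV without overlap in batches 1 and 2 and below EV without overlap in batch 3.

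SLC30A5 rose in batch 2 by 0.36 ± 0.05 in MUT vs EV (adjusted p = 1.7e-05), by 0.18 ± 0.05 in WT vs EV (adjusted p = 0.00925) and by 0.18 ± 0.05 in MUT vs WT (adjusted p = 0.0125). The last call is lost without WT library 3 (0.16, adjusted p = 0.054) or MUT library 1 of batch 2 (0.14, adjusted p = 0.063). MUT vs EV was 0.18 ± 0.05 in batch 1 (adjusted p = 0.059) and -0.21 ± 0.07 in batch 3 (adjusted p = 0.20), and the medium effect differed between batches (adjusted p = 3.9e-05). Pooled over the batches it was 0.12 ± 0.05 (adjusted p = 0.17). The fold change of all genes also moved with GC content, with a Spearman correlation across genes for MUT vs EV of -0.42, -0.11 and 0.35 in batches 1, 2 and 3. The SLC30A5 gene model has 40% GC. With offsets for GC and length its pooled value was 0.10 (adjusted p = 0.11), and its within-batch values were not recomputed with them. The SLC30A5 level in batch 2 exceeded that in batch 1 by 0.25 ± 0.05 (adjusted p = 0.00011). The same call for batch 3 over batch 1, 0.14 ± 0.05 (adjusted p = 0.026), is lost with total library size (0.12, adjusted p = 0.056), with no filter (0.10, adjusted p = 0.14) and on leaving out any one of 11 libraries, where it was 0.09 to 0.12. These were WT libraries 1 and 2 and MUT library 4 of batch 1, EV libraries 1 and 3 and WT library 1 of batch 2, and EV libraries 1, 2 and 3 and WT libraries 1 and 2 of batch 3.

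SLC30A9 encodes ZnT9, a zinc exporter of mitochondria (chromosome 4, 41990472 to 42090457, plus strand). It ran from 164 to 233 CPM over the 29 libraries, and no medium comparison was called, pooled or within a batch. Pooled, MUT vs EV was 0.05 ± 0.04 (adjusted p = 0.42), MUT vs WT 0.02 ± 0.03 (adjusted p = 0.82) and WT vs EV 0.03 ± 0.04 (adjusted p = 0.80). The interaction of medium and batch was called (adjusted p = 0.039), with MUT vs EV at 0.12 ± 0.05, 0.07 ± 0.04 and -0.08 ± 0.05 in batches 1, 2 and 3. MUT lay above EV without overlap in batch 1 and below it in batch 3. The SLC30A9 gene model has 39.1% GC, and the part of the GC trend given above in this change of sign was not tested. Batch 2 had the highest level, 0.29 ± 0.03 above batch 1 (adjusted p = 8e-09), and batch 3 was 0.18 ± 0.03 above batch 1 (adjusted p = 6.2e-05).

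SLC39A14 encodes ZIP14, an importer of zinc, iron and manganese (chromosome 8, 22367249 to 22434129, plus strand). In batch 1 it was at 204, 218 and 216 CPM in EV, 201, 191, 203 and 210 in WT and 239, 246, 231 and 229 in MUT. In batch 2 it was at 211, 208 and 210 CPM in EV, 255, 269 and 256 in WT and 283, 270 and 269 in MUT. In batch 3 it was at 236, 253 and 245 CPM in EV, 225, 234 and 229 in WT and 241, 246 and 233 in MUT. MUT lay above EV without overlap in batches 1 and 2 and overlapped it in batch 3, while WT lay above EV in batch 2, overlapped it in batch 1 and lay below it in batch 3.

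SLC39A14 rose by 0.17 ± 0.05 in MUT vs EV over the pooled batches (adjusted p = 0.035), a 1.12-fold difference. This is a marginal call. It is lost without batch 1 (0.17, adjusted p = 0.089) or batch 2 (0.06, adjusted p = 0.60), and on leaving out any one of 8 libraries (0.14 to 0.17, adjusted p 0.0503 to 0.108): MUT libraries 2 and 3 of batch 1 and the 6 EV and MUT libraries of batch 2. It is also lost with correlated libraries (0.17, adjusted p = 0.32) and with 1 profile per batch and medium (0.16, adjusted p = 0.92), and limma voom with quality weights gave 0.10 (adjusted p = 0.25). In batch 2 alone SLC39A14 rose by 0.39 ± 0.04 in MUT vs EV (adjusted p = 1.85e-07) and by 0.31 ± 0.04 in WT vs EV (adjusted p = 4.5e-06). In batch 3 MUT vs EV was -0.03 ± 0.04 (adjusted p = 0.79), and the medium effect differed between batches (adjusted p = 5.8e-07).

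SLC39A14 was also the member with a call between MUT and WT in batch 1, a rise of 0.21 ± 0.04 (adjusted p = 0.048). That call is lost on leaving out any one of 9 of the 11 batch 1 libraries (0.18 to 0.22, adjusted p 0.059 to 0.18), all but WT library 4 and MUT library 4, and without robust moderation (adjusted p = 0.070). Between batches SLC39A14 was 0.20 ± 0.04 higher in batch 2 than in batch 1 (adjusted p = 0.00029) and 0.14 ± 0.04 higher in batch 3 than in batch 1 (adjusted p = 0.0073), the latter lost without EV library 2 or 3 of batch 3 (0.10 and 0.11) and with no filter (0.11, adjusted p = 0.061).

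SLC39A10 encodes ZIP10, a zinc importer of the plasma membrane (chromosome 2, 195575977 to 195737702, plus strand). It was higher in batch 3 than in both other batches, and it was the 1 member called lower in WT than in EV medium in batch 2. In batch 1 it was at 31.8, 34.3 and 34.5 CPM in EV, 39.2, 36.5, 39.9 and 37.8 in WT and 40.6, 44.0, 43.6 and 35.3 in MUT. In batch 2 it was at 45.6, 43.7 and 46.7 CPM in EV, 38.2, 36.3 and 36.9 in WT and 46.2, 42.8 and 44.7 in MUT. In batch 3 it was at 61.8, 61.6 and 65.1 CPM in EV, 68.7, 65.8 and 65.6 in WT and 59.6, 56.4 and 55.4 in MUT. The WT libraries were thus above EV in batches 1 and 3 and below it in batch 2, each without overlap.

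In batch 2 SLC39A10 fell by 0.29 on the log2 scale in WT vs EV (SE 0.05, adjusted p = 0.00011), and MUT exceeded WT by 0.27 ± 0.05 (adjusted p = 0.00031). In batch 3 it fell by 0.23 in MUT vs WT (SE 0.05, adjusted p = 0.046), a call lost without any one of 6 libraries (EV libraries 1, 2 and 3, WT library 2 and MUT libraries 2 and 3; adjusted p 0.067 to 0.22) and without robust moderation (adjusted p = 0.060). The medium effect differed between batches (adjusted p = 3.9e-06). The SLC39A10 gene model has 37.6% GC. Across all genes, the MUT vs WT fold change had a Spearman correlation with GC content of -0.24, -0.34 and 0.40 in batches 1, 2 and 3. The part of GC content in the SLC39A10 differences was not tested. Because the batches differed in sign, the pooled values were near 0, at 0.05 ± 0.06 for MUT vs EV and 0.00 ± 0.06 for WT vs EV. Batch 3 exceeded batch 1 by 0.72 ± 0.06 (adjusted p = 7.2e-12) and batch 2 by 0.56 ± 0.06 (adjusted p = 1.5e-08). The smaller rise of batch 2 over batch 1, 0.16 ± 0.06 (adjusted p = 0.018), is lost without EV library 3 of batch 2 (0.13, adjusted p = 0.054), with total library size as the scaling (0.13, adjusted p = 0.060), with no filter (0.14, adjusted p = 0.057) and by limma voom with quality weights (0.07, adjusted p = 0.31).

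Other zinc genes were read from lists chosen with earlier results of these data known. Of 6 further SLC30 exporters, 6 were tested and 1 was called in pooled MUT vs EV (5.2% of all genes): SLC30A6, the partner of SLC30A5, rose by 0.16 ± 0.04 in MUT vs EV (adjusted p = 0.031). The list's median was 0.08, against 0.00 over all genes. Of 12 further SLC39 importers, 10 were tested and 2 rose in MUT vs EV. These were SLC39A9, an importer of the Golgi, by 0.16 ± 0.03 (adjusted p = 0.020), and SLC39A7, which releases zinc from the endoplasmic reticulum, by 0.30 ± 0.09 (adjusted p = 0.0496). SLC39A7 lies in the major histocompatibility region, for which alternative sequences exist, so its counts are less certain. The median of the 10 importers was -0.01. No gene of the table was called by edgeR in MUT vs EV with 1 summed profile per batch and medium (736 at an unadjusted p under 0.05) or without batch 2 (1916), so these calls are lost there too.

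Of 5 zinc sensing and handling genes, 4 (TMEM163, ZNG1A, GPR39 and ZNF658) were called higher in batch 2 than in batch 1 and 1, the zinc sensor MTF1, lower (66.7% of all genes). In batch 3 vs batch 2, 1 was called higher (TMEM163) and 3 lower (GPR39, MTF1 and ZNF658), where 44.5% of all genes were called. MTF1 was 0.13 lower on the log2 scale in batch 2 than in batch 1 (-0.13 ± 0.04, adjusted p = 0.0034) and -0.28 ± 0.04 in batch 3 vs batch 1 (adjusted p = 1.2e-07). Within batch 2 it rose by 0.15 ± 0.05 in MUT vs EV (adjusted p = 0.029) and by 0.21 ± 0.05 in WT vs EV (adjusted p = 0.0047). SLC30A3, a vesicular exporter at 0.230 to 1.27 CPM, rose in batch 2 by 1.66 ± 0.27 in WT vs EV (adjusted p = 0.000101) and by 1.30 ± 0.28 in MUT vs EV (adjusted p = 0.00088). SLC39A8, the importer most like SLC39A14 in sequence, fell in batch 2 by 0.64 in WT vs EV (SE 0.07, adjusted p = 2.4e-06) and by 0.49 in MUT vs EV (SE 0.07, adjusted p = 2.7e-05), against the rise of SLC39A14.

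Metallothionein genes also respond to copper and glucocorticoids. Of 13 copper and iron genes, 12 were tested, and in MUT vs EV 1 rose and 1 fell (5.2% of all genes), with both calls lost with correlated libraries. SLC31A1, the copper importer, rose by 0.14 ± 0.04 (adjusted p = 0.035), and CCS, the copper chaperone of superoxide dismutase, fell by 0.24 (SE 0.06, adjusted p = 0.025). In batch 2 vs batch 1, 8 were higher and 2 lower (66.7% of all genes). HMOX1, a heme and metal stress gene, stayed at or below 0.396 CPM. Of 9 glucocorticoid response genes, 8 were tested, and DUSP1, a phosphatase gene, was at 0.39 ± 0.13 in pooled MUT vs EV (adjusted p = 0.082). In batch 2 vs batch 1, 4 of the 8 were higher and 2 lower, a share near the 66.7% of all genes. CEBPD was 2.81 ± 0.16 higher (adjusted p = 1.5e-15) and DUSP1 1.83 ± 0.13 higher (adjusted p = 7.5e-13), while FKBP5 was -0.18 ± 0.07 (adjusted p = 0.015) and PER1 was also lower. Their part in the metallothionein differences was not tested.

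Cell identity was checked with marker lists. INS was at 8565 to 19528 CPM and 10 of 10 β-cell markers passed the low-count filter. Of 6 acinar markers, PNLIP and AMY2A were at 0 in all libraries and PRSS1, CELA3A and CTRB1 had at most 1 count in a library. The sixth, CPA1, gave nearly all of their summed level, 36.0 to 45.6 CPM in batch 1, 21.3 to 28.4 in batch 2 and 25.8 to 33.0 in batch 3. CPA1 was called between every pair of batches and was lower in pooled WT vs EV (-0.22 ± 0.04, adjusted p = 0.015). In pooled WT vs EV edgeR called no gene with 1 summed profile per batch and medium (503 at an unadjusted p under 0.05) or with no batch term (815). With correlated libraries limma voom called no gene lower, so the CPA1 call is lost in each of these. CEL itself was at 1.49 to 13.5 CPM in EV, 1.67 to 12.9 in WT and 1.26 to 9.87 in MUT libraries, and as it was overexpressed in HEK293 cells it does not check the medium labels. Markers of other islet cells, mostly SST, summed to 26.2 to 35.7 CPM in batch 1, 172 to 275 in batch 2 and 145 to 231 in batch 3. The fibroblast, endothelial and immune list ran from 31.9 to 42.1, 42.5 to 137 and 47.0 to 61.3 CPM, with EV highest in batch 2 (128 to 137) through CD68, while PTPRC, PECAM1 and DCN stayed at or below 0.336 CPM. Duct markers summed to 38.4 to 61.1 CPM. Their part in the differences between batches or media was not tested. In bulk RNA, fewer cells of a type and less RNA per cell cannot be told apart.

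The genes whose levels tracked SLC30A8 and MT2A most closely were found by correlating log2 CPM over the 29 libraries, with each batch mean removed, among 12296 genes of at least 5 CPM. For SLC30A8 these were SLC25A53 (Pearson r = 0.87), DNAJC18 (0.85), AGO4 (0.84) and SLC4A10 (0.84). For MT2A they were NRSN2-AS1 (0.77), MIR1915HG (0.67), NFIL3 (0.66) and RBM22 (0.66), on MT2A counts of at most 24 per library. The same measure, applied to SLC30A1 after its values were seen, gave MECOM (0.85), IDH1 (0.85), SLITRK6 (0.84) and SLC3A1 (0.83), and for MT1X SLC5A4-AS1 (0.81) and ZFP3 (0.76). The libraries share media within batches, so these values describe these 29 libraries only.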

How the data were processed

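RNA of 29 EndoC-βH1 libraries was sequenced as stranded mRNA, per the labels' protocols. The authors deposited 1 table of estimated counts per Ensembl gene, made with fastp and kallisto per the submitters' processing notes. Versions, genome build and annotation: not given in the sources used here. Entries without a gene symbol held 2.69% of counts and stayed in.

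Estimated counts were rounded, filtered (filterByExpr) and scaled by TMM, and edgeR 4.0.16 (R 4.3.3) fitted a quasi-likelihood model with robust moderation, with medium and batch as terms. An interaction model and a fit per batch followed. P-values were adjusted by Benjamini-Hochberg over all genes tested, with a threshold of 0.05. SE is the log2 fold change divided by the root of F. Alternatives used DESeq2 1.42.0, limma 3.58.1, other filters, scalings and sample sets. The pooled and interaction tests were also run on simulated counts of independent libraries, with no medium effect differing between batches. Such counts cannot show how the tests behave on these data. Here libraries of a batch and medium had a correlation of 0.431, and the medium effect differed between batches for 49.2% of genes. Gene positions and lengths are from GENCODE 29 (GRCh38).

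The members and lists were chosen with earlier results of these data known. All 10 members are named, with up to 4 genes of each list: those called in a pooled comparison, else the highest. MTF1, SLC30A3, SLC39A8, HMOX1, CEBPD, DUSP1, FKBP5, PER1, MT3, MT1H, MT4 and MT1B were chosen after their values were seen.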

Additional observations from a re-analysis of the deposited data

Results flagged for a closer look

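The effect of medium differed between batches, by an edgeR test of the interaction, for SLC39A14 (adjusted p = 5.83e-07), SLC39A10 (adjusted p = 3.94e-06), SLC30A5 (adjusted p = 3.93e-05), MT1X (adjusted p = 0.00205), SLC30A1 (adjusted p = 0.00699) and SLC30A9 (adjusted p = 0.0386). Of all genes tested, 49.2% did so. MT1X entered this test only through batch 2, where it is high.

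Single libraries stood apart from their group for the scarcest members. MT2A was at 0.415 CPM in EV library 1 of batch 2 among the EV libraries and at 0.615 CPM in WT library 2 of batch 2 among the WT libraries. MT1E was at 0.0637 CPM in MUT library 2 of batch 3 among the MUT libraries, and at 0.0282 CPM in MUT library 4 of batch 1 among those of its batch, on 2 counts and 1 count. In all, 50 groups were examined. The rule's chance rate of about 1 in 20 assumes normally distributed values from 1 source. It does not hold for counts this low or for groups that span 3 batches, and MT2A was highest in batch 2 in any case.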

How the results depend on the processing

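Of 538 values of single genes under alternatives other than leaving out 1 library, 484 kept direction and call, 21 lost the call, 10 gained it and 23 changed sign. Members called in MUT vs EV numbered 0 with no filter, no batch term, limma voom with quality weights or with correlated libraries, only the 2 groups compared, 1 summed profile per batch and medium, or without batch 2, 3 with GC and length offsets, 5 without batch 3, and 0 to 2 on leaving out 1 library. In MUT vs WT 1 was called with only the 2 groups, without batch 2 or without batch 3. In WT vs EV 0 were called with no batch term, correlated libraries, summed profiles or without batch 2, and 0 to 1 on leaving out 1 library. The interaction called 2 without batch 2. In batch 1, MUT vs EV called 2 with total library size and 0 to 4 on leaving out 1 library, and MUT vs WT 0 without robust moderation, an alternative chosen after seeing the data, and 0 to 1 on leaving out 1 library. On leaving out 1 library, MUT vs WT in batch 2 called 2 to 4, MUT vs EV in batch 3 called 0 to 1 and MUT vs WT in batch 3 called 0 to 2, with 0 without robust moderation. Over all genes, MUT vs EV called 1106, 2139 by DESeq2, 232 with no filter, 2299 with GC and length offsets, 4744 without batch 3, 20 with only the 2 groups, 7 with quality weights and 0 with no batch term, correlated libraries, summed profiles or without batch 2. WT vs EV called 67, 382 by DESeq2, 242 with the offsets, 372 with only the 2 groups and 551 without batch 3. The cause of these changes was not tested.

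Over all genes tested, same-numbered libraries of a batch did not deviate together (28 pairs, r -0.065 to 0.076). A correlation over all genes cannot exclude that libraries were paired by number, as single genes may still vary together. With the replicate block, MUT vs EV called 0 members and 0 of all genes, WT vs EV called 1 member and 34 of all genes, and SLC39A10 in WT vs EV was -0.0061.

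Signs changed as follows (log2). For SLC30A9, MUT vs EV was -0.0072 and MUT vs WT -0.0398 without batch 1, and WT vs EV -0.0025 with quality weights and -0.0081 without batch 2. For SLC39A10, MUT vs EV was -0.0111 with no batch term and -0.0789 without batch 1, and MUT vs WT -0.0475 without batch 2. Its WT vs EV was -0.0231 with no batch term, -0.0037 with correlated libraries, -0.0055 with summed profiles, -0.0122 with the offsets, -0.0922 without batch 1, -0.0373 without batch 3 and -0.0294 to 0.025 on leaving out 1 library. WT vs EV of SLC30A1 was 0.0436 with no batch term, 0.0556 with correlated libraries, 0.1034 without batch 1 and 0.0471 without batch 3. With quality weights WT vs EV was -0.004 for SLC30A5 and -0.0268 for SLC39A14. Without batch 2 it was -0.0914 for SLC39A14, -0.7349 for MT1X and -0.244 for MT1F. Depth limits MT2A and MT1E, at no more than 24 and 2 counts per library.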
